A study of Mus musculus with 6 samples.

Results

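The proteasome subunit genes were described across 6 conditions of RAW264.7 cells, a mouse macrophage line. The genes were those whose symbol is Psma, Psmb, Psmc or Psmd followed by a number, without the immunoproteasome genes Psmb8, Psmb9 and Psmb10, together with the activator genes Psme1, Psme2 and Psme3. This gave 39 of the 24062 genes in the count tables. M0 macrophages were unpolarized. M1 macrophages received LPS at 100 ng/mL with IFN-γ at 20 ng/mL for 24 h, and M2 macrophages received IL-4 at 20 ng/mL for 24 h. These doses are from the study's methods, while a figure legend of the study gives lower doses of IFN-γ and IL-4. The irradiated counterparts RM0, RM1 and RM2 received 10 Gy from a 137Cs gamma source after polarization, followed by 24 h of incubation. Each condition was 1 RNA-seq library made from the pooled RNA of 5 wells, so a difference between 2 libraries has no replicate check. Whether the non-irradiated cells were also kept for those hours is not given in the sources used here, so irradiation and time in culture cannot be told apart.

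The proteasome degrades proteins that carry ubiquitin chains. Its core particle is a barrel of alpha and beta rings with the proteolytic sites inside. The regulatory particle, made of an ATPase base and a lid, binds, deubiquitinates and unfolds substrates, and the PA28 activators open the core without ATP. In macrophages IFN-γ is known to induce the PA28 alpha and beta subunits and the immunoproteasome subunits, which shape peptides for MHC class I.

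The libraries held 17894937 to 18870516 counts. The 39 genes took 0.64% (M0), 0.679% (M1) and 0.624% (M2) of the counts without irradiation and 0.584% (RM0), 0.584% (RM1) and 0.556% (RM2) after it. Levels are given in scaled CPM, that is, counts relative to the library total after the total was adjusted by a TMM factor that sets the typical gene at an equal level in all libraries. The factor was 0.8005 for M1 and 0.8835 for RM1 but 1.050 to 1.134 for the other 4 libraries. The 100 most abundant genes took 34.5% of counts in M1 and 32.6% in RM1, against 26.8% to 29.3% elsewhere. With library totals alone the median of all genes in M1/M0 moved from -0.0258 to -0.46 on the log2 scale. M1 changes are therefore given relative to all genes, and as ratios of 2 genes within 1 library, which do not depend on scaling.

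Of the 10 macrophage markers examined, 9 were found by symbol and 8 reached 10 counts, with a summed level of 21810.5 to 37275.2 scaled CPM. The labels name bone marrow as the source of the cell line. Of 20 markers of other cell types, 4 reached 10 counts and 9, among them Cd3e and Epcam, were at 0 in all 6 libraries. Their summed level was 8.22 to 47.7 scaled CPM, led by Dcn with 627 counts in M1 and 726 in RM1 against 113 to 177 elsewhere, and its part in the results was not tested.

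Promoter sequences are shown for the activator genes, which include the genes with the largest differences between conditions, and for Psmb6 and Psmb5, catalytic subunits that differed in their M1 values. RefSeq (GRCm38.p6) gave 250 bases before to 50 bases after the start for 32 of the 39 genes, each listed here 5′ to 3′ on the strand of its gene. Capitals mark matches, on either strand, to an interferon-stimulated response element (ISRE, read as GAAA, then any 2 bases, then GAAA), a gamma-activated site (GAS, TTCNNNGAA) or an antioxidant response element (ARE, TGACNNNGC).
Psme1 (chr14:55578244-55578543, plus strand): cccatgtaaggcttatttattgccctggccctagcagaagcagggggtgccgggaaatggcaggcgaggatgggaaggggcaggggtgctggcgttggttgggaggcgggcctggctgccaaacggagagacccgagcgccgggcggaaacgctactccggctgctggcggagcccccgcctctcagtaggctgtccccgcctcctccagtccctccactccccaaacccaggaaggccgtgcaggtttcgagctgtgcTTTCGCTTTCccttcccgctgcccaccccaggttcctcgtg
Psme2 (chr14:55591052-55591351, minus strand): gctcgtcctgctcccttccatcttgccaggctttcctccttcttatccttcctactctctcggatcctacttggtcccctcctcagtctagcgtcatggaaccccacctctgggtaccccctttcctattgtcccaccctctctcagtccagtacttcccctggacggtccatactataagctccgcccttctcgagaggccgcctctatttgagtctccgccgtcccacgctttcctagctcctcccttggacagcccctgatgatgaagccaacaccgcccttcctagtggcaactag
Psme3 (chr11:101315963-101316262, plus strand): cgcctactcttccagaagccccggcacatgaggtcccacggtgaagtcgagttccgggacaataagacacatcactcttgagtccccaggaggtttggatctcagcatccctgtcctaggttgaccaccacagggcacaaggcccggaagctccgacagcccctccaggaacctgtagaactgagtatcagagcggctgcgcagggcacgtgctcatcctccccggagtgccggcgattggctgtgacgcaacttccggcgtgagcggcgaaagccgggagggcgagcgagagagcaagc
Psmb6 (chr11:70525107-70525406, plus strand): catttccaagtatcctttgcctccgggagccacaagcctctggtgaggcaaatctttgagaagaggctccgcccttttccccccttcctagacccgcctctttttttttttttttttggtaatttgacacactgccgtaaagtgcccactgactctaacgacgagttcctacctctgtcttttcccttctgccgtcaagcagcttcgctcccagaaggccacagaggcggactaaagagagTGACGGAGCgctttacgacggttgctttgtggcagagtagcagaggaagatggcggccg
Psmb5 (chr14:54617946-54618245, minus strand): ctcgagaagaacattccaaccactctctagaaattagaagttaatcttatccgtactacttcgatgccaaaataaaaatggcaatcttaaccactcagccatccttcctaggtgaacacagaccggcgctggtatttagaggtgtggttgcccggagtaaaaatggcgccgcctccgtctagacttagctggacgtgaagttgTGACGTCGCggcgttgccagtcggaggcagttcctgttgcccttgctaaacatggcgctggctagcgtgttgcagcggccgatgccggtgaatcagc
Psme1 held an ISRE match on the reverse strand that began 9 bases after the start, whereas neither Psme2 nor Psme3 held a match in these windows. Psmb6 held an ARE match 9 bases before the start and Psmb5 held one 47 bases before it. Among the 35 windows of the 32 genes, ISRE letters occurred in 4 (11.4%; Psmb3, Psmd4, Psmd9 and Psme1) against 3.44% of all 32851 windows in the table. GAS letters occurred in 1 (2.86%; Psmd2) against 8.3%. ARE letters occurred in 5 (14.3%; Psmb5, Psmb6, Psmc6, Psmd12 and Psmd9) against 12.4%. No matches in these windows overlapped each other, and a match describes letters, not binding. Psma8, Psmb1, Psmb2, Psmb7, Psmc3, Psmd3 and Psmd7 were not in the promoter table.

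Of the 39 genes, 38 reached at least 10 counts and were measured in every comparison. Psmb11, the thymus-specific catalytic subunit, had 0 counts in all 6 libraries, where a count of 0 allows up to 3 counts. Per kilobase of transcript, the highest mean levels over the 6 libraries were those of the lid gene Psmd8 (405.7 scaled CPM per kilobase), the catalytic gene Psmb6 (360.5), the core gene Psmb4 (278.1) and Psme2 (278.1). The lowest was that of Psma8 (8.06), a variant alpha subunit known from testis, followed by the base chaperones Psmd9 (11.3) and Psmd5 (11.9). Psma8 shared no 100-base window with another annotated gene, and it had 178 to 313 counts per library.

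For 6 genes (Psma2, Psma3, Psmb5, Psmc3, Psmd1 and Psmd9) the span listed in the tables covered under 50% of the annotated gene, down to 5.17% for Psmb5. Of the 39 genes, 27 shared no 100-base window with other annotated genes. Psme2 shared 44% of its windows with its copy Psme2b, so reads of the pair cannot be assigned with certainty. Psma5 shared 27.5%, Psmb5 24.9%, Psma3 20.6% and Psmb3 18% with other loci.

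The first comparison asked how the genes differed between M1 and unpolarized macrophages. Psme1 and Psme2, the PA28 alpha and beta genes, had the highest M1/M0 values of all 38, while Psme3 was lower in M1. In these bulk libraries fewer cells of a type and less RNA per cell cannot be told apart. Fitted over both irradiation arms, 16 of the 38 genes rose with M1 polarization and 3 fell (5 and 9 with library totals in place of TMM), and the other 19 did not pass the test. The genes that rose came from the alpha ring (Psma2, Psma3, Psma5), the beta ring (Psmb1, Psmb6, Psmb7), the base (Psmc2, Psmc6, Psmd1), the base chaperones (Psmd5, Psmd10), the lid (Psmd8, Psmd11, Psmd14) and the activators (Psme1, Psme2). Those that fell were the base ATPase gene Psmc4, the lid gene Psmd6 and Psme3. The test was edgeR's quasi-likelihood test in an additive model of state and irradiation with Benjamini-Hochberg adjustment over 11574 genes, in which the arms stand in for replicates and 2 residual degrees of freedom remain. The model assumes the same M1 effect with and without irradiation. In M1/M0 and RM1/RM0 the values were 1.88 and 0.86 for Psme1 and 0.54 and 0.51 for Psmd10, so a fitted effect can average unlike values. Among all genes tested 23.3% rose and 24.3% fell, beside 42.1% and 7.89% of the proteasome genes. With library totals 1091 of the 11574 genes rose and 4750 fell. The median M1 effect was 0.26 on the log2 scale for the 38 genes and -0.0166 for all genes.

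Of the 16 genes that rose, 5 passed with library totals as well and 1 (Psmc2) changed direction. The distance of the 38 genes from the median of all genes in M1/M0 was 0.34 on the log2 scale, 0.23 over genes with at least 100 counts in both libraries, and 0.27 after removing the trend with GC content and transcript length, a setting chosen after the data were seen. The median M1 effect of the 38 genes was 0.19 without M0, 0.17 without M1 and 0.31 without RM1. Without both M2 and RM2, 10 of the 38 rose, where 2068 of 11574 genes did, against 2692 of 11574 with all libraries. Psma5, Psmd8, Psmd11, Psme1 and Psme2 rose, and Psmc4 and Psme3 fell, under every alternative of the fit that was tried. The minimum of 100 counts and the trend removal were applied to values of single pairs and not to the fit.

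Psme1 encodes PA28 alpha, which forms a ring with PA28 beta (chr14:55578494-55581527, GRCm38, plus strand). It had 1546 (M0), 4259 (M1) and 1412 (M2) counts without irradiation and 1553 (RM0), 2400 (RM1) and 1261 (RM2) after it. After scaling it was at 77.9 (M0), 288.0 (M1) and 69.6 (M2) scaled CPM without irradiation and 79.3 (RM0), 144.0 (RM1) and 63.6 (RM2) after it. M1 was the highest library and RM1 the second, and the other 4 lay below both. The M1/M0 log2 fold change was 1.88, with a 95% counting interval from 1.80 to 1.97, and the fitted M1 effect was 1.40 (SE 0.207, edgeR adjusted p = 0.000358).

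Psme2 encodes PA28 beta, and lies close to Psme1 on the same chromosome (chr14:55587440-55591101, minus strand). It had 2922 (M0), 7890 (M1) and 2637 (M2) counts without irradiation and 2856 (RM0), 4400 (RM1) and 2105 (RM2) after it. The order of the libraries was nearly that of Psme1, with M1 first and RM1 second. The M1/M0 value was 1.86 (interval 1.80 to 1.92), and the M1 effect was 1.37 (SE 0.2, edgeR adjusted p = 0.000322). Summed with its copy Psme2b, the M1/M0 value was 1.84 (1.79 to 1.90). The ratio of Psme1 to Psme2 counts ranged from 0.529 to 0.599 over the 6 libraries, with 0.529 in M0 and 0.540 in M1, which did not differ beyond counting error.

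Psme3 encodes PA28 gamma, a mostly nuclear activator that forms a ring of its own (chr11:101316251-101323530, plus strand). It had 3187 (M0), 1552 (M1) and 3358 (M2) counts without irradiation and 2941 (RM0), 1706 (RM1) and 3055 (RM2) after it. M1 and RM1 were the lowest libraries and did not overlap the other 4. The M1/M0 value was -0.61 (interval -0.70 to -0.53), and Psme3 fell by 0.58 on the log2 scale in the fit (SE 0.116, edgeR adjusted p = 0.00212).

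**Figure D1:**
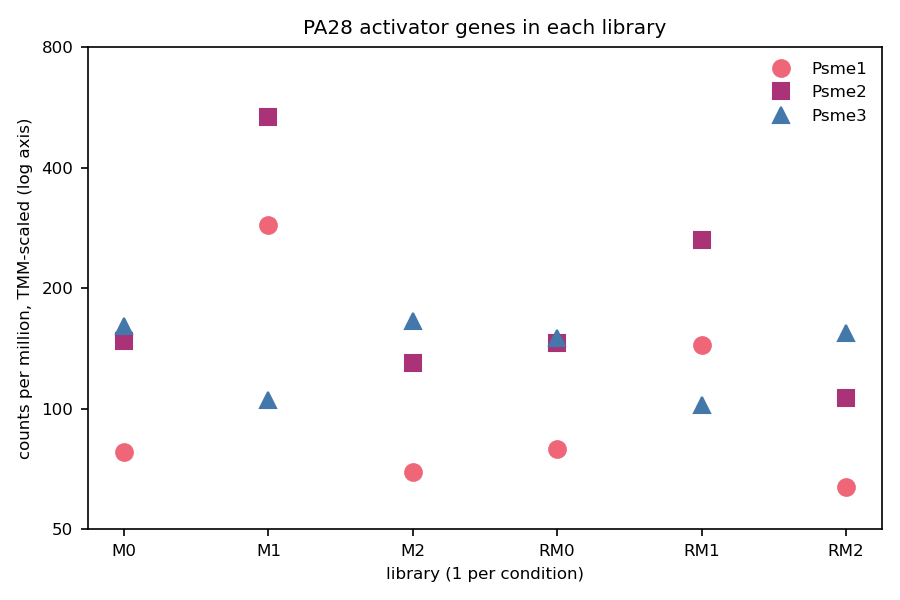
TMM-scaled CPM (log axis) of Psme1, Psme2 and Psme3 in each of the 6 libraries, 1 point per library. Psme1 reached 288.0 in M1 and 144.0 in RM1 against 63.6 to 79.3 elsewhere, while Psme3 was lowest in M1 and RM1.

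Gene pairs for ratios were chosen with their M1 values known, and Psmd8 and Psmd6 had the highest and lowest M1/M0 values of the lid, so a larger ratio in M1 is a description. Within each library the ratio of Psme1 to Psme3 counts was 0.485 (M0), 2.74 (M1) and 0.420 (M2) without irradiation and 0.528 (RM0), 1.41 (RM1) and 0.413 (RM2) after it. Psme2 to Psme3 ran from 0.689 in RM2 to 5.08 in M1, with 2.58 in RM1. Both ratios were highest in M1 and second in RM1, and the counting intervals of these 2 libraries did not overlap each other or those of the other 4.

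In the alpha ring, Psma5 had 3626 (M0), 5148 (M1) and 3437 (M2) counts without irradiation and 3236 (RM0), 3837 (RM1) and 3079 (RM2) after it. It rose with M1 polarization by 0.71 on the log2 scale (SE 0.143, edgeR adjusted p = 0.00224), with M1/M0 at 0.93. Of its 8 genes, 3 rose and none fell, and the test was not passed by Psma1, Psma4, Psma6, Psma7 and Psma8 (edgeR adjusted p from 0.0706 to 0.28). Psma8 was lowest in M1/M0 at -0.39, with 313 (M0), 178 (M1) and 287 (M2) counts without irradiation and 247 (RM0), 193 (RM1) and 311 (RM2) after it. Psma6 had 4256 (M0), 3578 (M1) and 3779 (M2) counts without irradiation and 3934 (RM0), 4452 (RM1) and 3699 (RM2) after it. The ratio of Psma5 to Psma4, another gene of the ring, was 2.27 in M0, 4.07 in M1 and 2.92 in RM1.

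In the beta ring the 3 catalytic genes differed. Psmb6, the caspase-like subunit, had 4986 (M0), 6593 (M1) and 4801 (M2) counts without irradiation and 4967 (RM0), 5307 (RM1) and 4368 (RM2) after it, and its M1/M0 value was 0.83. Psmb7, the trypsin-like subunit, had 3089 (M0), 3984 (M1) and 2925 (M2) counts without irradiation and 2874 (RM0), 3174 (RM1) and 2450 (RM2) after it, with M1/M0 at 0.79. Psmb5, the chymotrypsin-like subunit, had 3047 (M0), 2333 (M1) and 2714 (M2) counts without irradiation and 2743 (RM0), 1950 (RM1) and 1960 (RM2) after it.

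Psmb6 and Psmb7 rose in the fit (0.58 and 0.59, edgeR adjusted p = 0.00716 and 0.00446), while Psmb5 was at -0.11 (adjusted p = 0.487). The ratio of Psmb6 to Psmb5 was 1.64 in M0, 2.83 in M1 and 2.72 in RM1, and that of Psmb7 to Psmb5 was 1.01, 1.71 and 1.63. Psmb1, a structural subunit, also rose (0.56, edgeR adjusted p = 0.00476). Psmb2, another structural subunit, was the lowest of the ring in M1/M0 at -0.22, with 1958 (M0), 1255 (M1) and 1840 (M2) counts without irradiation and 1821 (RM0), 1205 (RM1) and 1650 (RM2) after it. M1 and RM1 were its lowest libraries, but it did not pass the test (-0.29, edgeR adjusted p = 0.0641).

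In the base, 3 of 8 genes rose and 1 fell. Psmc4, an ATPase of the hexameric unfolding ring, had 2330 (M0), 1131 (M1) and 2297 (M2) counts without irradiation and 2020 (RM0), 1265 (RM1) and 1823 (RM2) after it. It fell by 0.53 on the log2 scale with M1 polarization (SE 0.124, edgeR adjusted p = 0.0054), while its ring partners Psmc2 and Psmc6 rose (0.34 and 0.41, adjusted p = 0.0343 and 0.0256). With library totals the Psmc2 effect turned to -0.0026. Psmd1, a large scaffold protein of the base, was the highest of the group in M1/M0 (0.44), with 2836 (M0), 2865 (M1) and 2873 (M2) counts without irradiation and 2645 (RM0), 2967 (RM1) and 2859 (RM2) after it. Its raw counts thus differed little between M0 and M1, and with library totals its M1/M0 value was -0.0031.

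In the lid, Psmd8 and Psmd11 stood highest. Psmd8, a lid subunit that completes lid assembly, had 10060 (M0), 16021 (M1) and 9234 (M2) counts without irradiation and 9707 (RM0), 12064 (RM1) and 8248 (RM2) after it. Psmd8 rose by 0.83 on the log2 scale (SE 0.158, edgeR adjusted p = 0.00168), and its M1/M0 value of 1.09 (interval 1.06 to 1.13) passed 2-fold. Psme1 and Psme2 were the other genes of the 38 that did so, and 9.35% of all genes did. Psmd11, a lid subunit that contacts the core particle and the base, had 3389 (M0), 4960 (M1) and 3438 (M2) counts without irradiation and 3395 (RM0), 4888 (RM1) and 3304 (RM2) after it. Raw counts of Psmd11 were nearly alike in M1 and RM1, while after scaling it was at 335.4 and 293.2 scaled CPM. Psmd11 rose by 0.87 with M1 polarization (SE 0.123, edgeR adjusted p = 0.000276).

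Psmd6, a lid scaffold subunit, had 1546 (M0), 840 (M1) and 1663 (M2) counts without irradiation and 1398 (RM0), 982 (RM1) and 1548 (RM2) after it, and it fell by 0.37 (edgeR adjusted p = 0.0284). The ratio of Psmd8 to Psmd6 was 6.51 (M0), 19.1 (M1) and 5.55 (M2) without irradiation and 6.94 (RM0), 12.3 (RM1) and 5.33 (RM2) after it. Psmd11 to Psmd12, another pair of lid scaffold subunits, went from 1.57 in M0 to 3.70 in M1 and 3.17 in RM1. Psmd14, the deubiquitinase that removes ubiquitin chains from substrates, had 4462 (M0), 4189 (M1) and 4771 (M2) counts without irradiation and 3858 (RM0), 4262 (RM1) and 4722 (RM2) after it. It passed the test at 0.35 (edgeR adjusted p = 0.0344), and with library totals its M1/M0 value was -0.11.

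The ubiquitin receptor gene Psmd4 had 5919 (M0), 5204 (M1) and 5154 (M2) counts without irradiation and 5557 (RM0), 5020 (RM1) and 4583 (RM2) after it, and it did not pass the test for M1 (0.16, edgeR adjusted p = 0.294). Of the base chaperones, which help assemble the ATPase ring and leave it afterwards, Psmd5 and Psmd10 rose (0.60 and 0.53, edgeR adjusted p = 0.00229 and 0.00418). Psmd5 had 877 (M0), 1008 (M1) and 950 (M2) counts without irradiation and 836 (RM0), 1058 (RM1) and 955 (RM2) after it. Psmd10, also known as gankyrin, had 1194 (M0), 1294 (M1) and 1280 (M2) counts without irradiation and 1188 (RM0), 1445 (RM1) and 1303 (RM2) after it. Psmd9 had 624 (M0), 596 (M1) and 565 (M2) counts without irradiation and 514 (RM0), 434 (RM1) and 475 (RM2) after it, and was at 0.18 (edgeR adjusted p = 0.313).

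Between single libraries a difference was called at a log2 size of 0.32 or more. By this rule 18 of the 38 genes were higher in M1 than in M0 and 4 were lower (Psma8, Psmc4, Psmd6 and Psme3), where 31.8% and 35.7% of all genes were. The median was 0.31 for the 38 genes and -0.0258 for all genes, and 30 of 38 were above 0. With library totals 7 were higher and 11 lower, where 1671 and 6741 of 11778 genes were. Between the irradiated libraries RM1 and RM0, 14 were higher (27.1% of all genes) and 3 lower (29.9%), namely Psmb2, Psmc4 and Psme3. With library totals these were 5 and 8, where 1790 of 11713 genes were higher and 5271 lower. The 3 base chaperones had the highest median M1/M0 value after the activators (0.54), followed by the beta ring (0.45), the alpha ring (0.30), the lid (0.26) and the base (0.23).

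**Figure D2:**
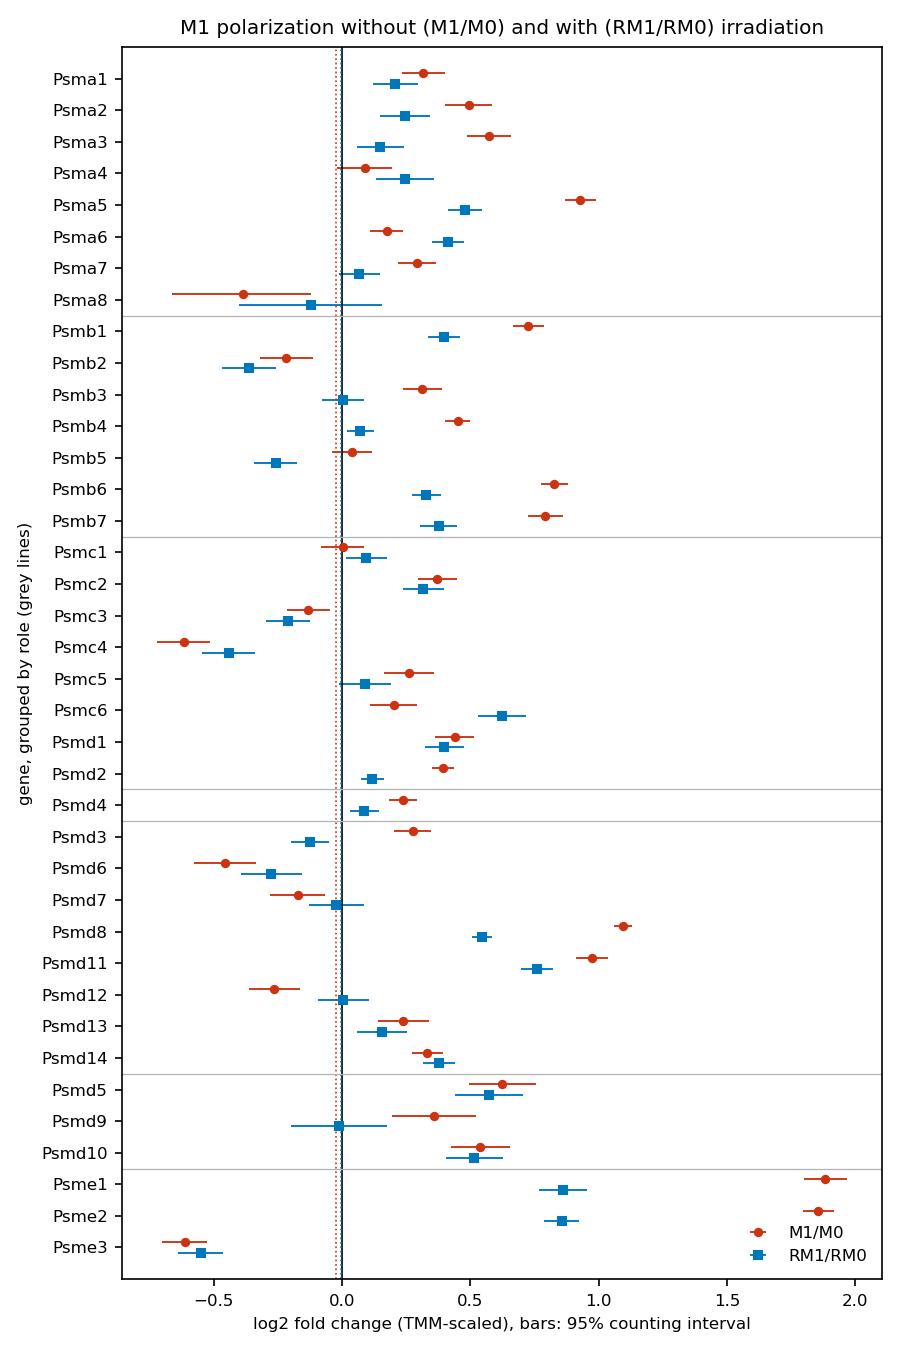
Log2 fold change of TMM-scaled counts of the 38 measured genes in M1/M0 (circles) and RM1/RM0 (squares), grouped by role with grey lines; bars are 95% counting intervals and dotted lines the medians of all genes. Psme1, Psme2, Psmd8 and Psmd11 lie farthest to the right, Psmc4, Psme3 and Psmd6 to the left, and Psme1 is at 1.88 in M1/M0 and 0.86 in RM1/RM0. Library totals shift all points to the left, with 13 of 38 genes above 0 in M1/M0.

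M1/M0 and RM1/RM0 share no library, and 34 of the 38 genes had the same direction in both (30 with library totals), compared with 79.4% of all genes with TMM. The value was lower in RM1/RM0 than in M1/M0 for 27 of 38 genes, beside 49.8% of all genes. The median difference was -0.15 against 0.0016 for all genes. For each gene this difference equals RM1/M1 minus RM0/M0, so the values after irradiation given below are not separate from it. With library totals 17 of 38 were lower, where the median of all genes was -0.46 in M1/M0 and -0.25 in RM1/RM0. The difference ran from -1.02 for Psme1 to 0.42 for Psmc6, a base ATPase with 2075 (M0), 1778 (M1) and 2358 (M2) counts without irradiation and 1626 (RM0), 2133 (RM1) and 2260 (RM2) after it. The difference of the M1 effect between the arms was not tested, since the 4 libraries leave no degrees of freedom.

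The ratio of summed core to summed base counts was 1.75 (M0), 2.12 (M1) and 1.67 (M2) without irradiation and 1.73 (RM0), 1.82 (RM1) and 1.61 (RM2) after it. Lid to base was 1.09 (M0), 1.46 (M1) and 1.07 (M2) without irradiation and 1.10 (RM0), 1.28 (RM1) and 1.09 (RM2) after it. Psmd8, the most abundant lid gene, carried most of the difference in the lid to base ratio. Without Psmd8 it was 0.702 in M0 and 0.752 in M1, and without Psmd8 and Psmd11 it was 0.572 and 0.533. The medians of the lid and base genes in M1/M0 were close (0.26 and 0.23 on the log2 scale).

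The immunoproteasome subunits replace their constitutive counterparts in the core. In the assembled core Psmb8 takes the place of Psmb5, Psmb9 that of Psmb6 and Psmb10 that of Psmb7. All 3 rose with M1 polarization (Psmb8 by 1.36, Psmb9 by 2.11 and Psmb10 by 2.73 on the log2 scale, edgeR adjusted p = 0.000318, 0.000238 and 0.000298). Psmb8 to Psmb5 was 0.518 (M0), 1.77 (M1) and 0.451 (M2) without irradiation and 0.477 (RM0), 1.04 (RM1) and 0.472 (RM2) after it. Psmb9 to Psmb6 was 0.0499 (M0), 0.209 (M1) and 0.0417 (M2) without irradiation and 0.0469 (RM0), 0.0882 (RM1) and 0.0277 (RM2) after it. Psmb10 to Psmb7 was 0.0754 (M0), 0.564 (M1) and 0.0721 (M2) without irradiation and 0.0839 (RM0), 0.192 (RM1) and 0.0727 (RM2) after it. In each pair the M1 ratio was the highest and the RM1 ratio the second, with no overlap of their counting intervals with each other or with the other 4.

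**Figure D3:**
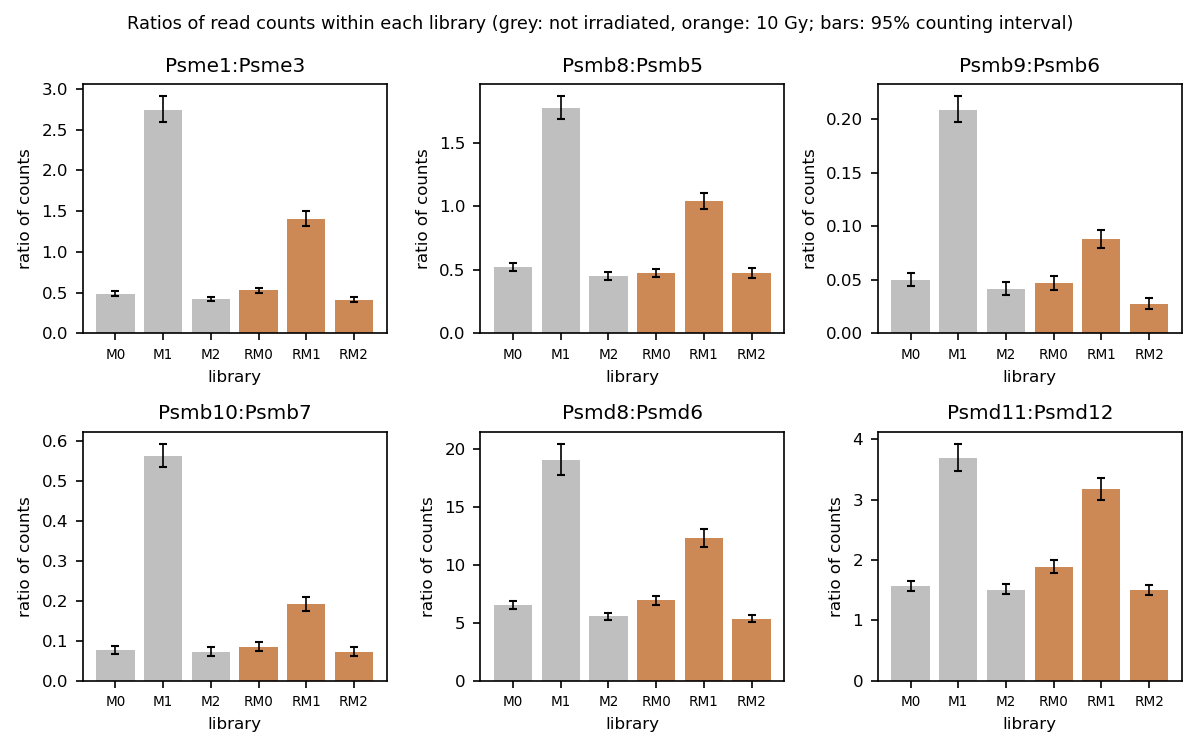
Ratios of read counts of 6 gene pairs within each library, which need no scaling between libraries (grey bars not irradiated, orange bars 10 Gy, error bars 95% counting intervals). The pairs were chosen with their M1 values known, and each ratio is highest in M1 and second in RM1, for example Psme1 to Psme3 at 2.74 and 1.41.

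Genes that work with the proteasome were examined as 5 lists, with the immunoproteasome genes as the first. Among 5 core assembly chaperones, Pomp, which helps the core mature, rose with M1 polarization (1.05, edgeR adjusted p = 0.000523), while Psmg1 and Psmg3 fell by 0.81 and 0.83 (adjusted p = 0.000641 and 0.00107). Among 8 other bound proteins, 3 rose: Shfm1, a small lid subunit (0.81), Psme4, the PA200 activator (0.64), and the deubiquitinase Uchl5 (0.38, edgeR adjusted p = 0.0497). Among 4 genes of proteasome gene transcription, Nfe2l1, the transcription factor known to induce proteasome genes, rose (0.53, adjusted p = 0.0191). Of the ubiquitin and delivery genes, Ubb, which encodes ubiquitin, rose (1.14, edgeR adjusted p = 0.000444). With library totals the immunoproteasome genes, Pomp, Shfm1 and Ubb still rose, while Psme4 (0.30), Uchl5 (0.029) and Nfe2l1 (0.18) no longer passed. Adrm1 (-0.56), Usp14 (-0.48), Ube3c (-0.48), Psmf1 (-0.53) and AI314180 (-0.66) of the bound proteins then passed as lower. Psmg2 (-0.72), Psmg4 (-0.57) and Nfe2l2 (-0.64) did so too, where the median M1 effect of all genes was -0.36. None of the genes in these lists passed for M2 or for irradiation.

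The comparison with M2 macrophages showed small values. In M2/M0 none of the 38 genes was called in either direction, where 7.85% of all genes were higher and 5.6% lower. The median was -0.11 against -0.0041 for all genes, and 29 of 38 were below 0 (23 with library totals), all 7 measured beta ring genes among them. In the additive edgeR fit 0 of 38 rose and 0 fell for M2, against 0.156% and 0.0346% of all genes. At an unadjusted p under 0.05 there were 3, Psmb5 at -0.35, Psmd3 at -0.36 and Psmc6 at 0.30 (7.89%, beside 10.1% of all genes), and DESeq2 called 0. Without M1 or without RM1, the median M2 effect was -0.097 for the 38 genes and -0.0039 for all genes. Some of the 38 genes passed in these fits, which leave 1 library in the M1 state. Without both M1 and RM1, 1 of the 38 rose and 4 fell, where 783 and 544 of 11574 genes did. M1/M0 and M2/M0 share the M0 library. Among the irradiated libraries, RM2/RM0 had 1 gene higher (Psmc6 at 0.46, beside 18.8% of all genes). In RM2/RM0 4 were lower (15.3% of all genes), namely Psmb4, Psmb5, Psmd3 and Psme2. With library totals 4 were higher and 4 lower, where 2698 and 1344 of 11748 genes were. After removing the trend with GC content and length none was higher in RM2/RM0, where 1212 of 11748 genes were, and Psmc6 turned to -0.059.

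Irradiation was compared with no irradiation within each state. The genes lay slightly lower after 10 Gy in all 3 states, and most in M1. In RM0/M0 the median was -0.096 against -0.00079 for all genes, with 32 of 38 below 0 where 50.2% of all genes were. In RM1/M1 the median was -0.23 against -0.012, with 33 of 38 below 0 (all genes 51.3%). In RM2/M2 the median was -0.10 against -0.0025, with 31 of 38 below 0 (all genes 50.4%). With library totals the numbers below 0 were 37, 24 and 36, where the medians of all genes were -0.050, 0.13 and -0.055.

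No gene was called higher in any of the 3 pairs, against 6.37% of all genes in RM0/M0, 22.9% in RM1/M1 and 10.5% in RM2/M2. Called lower were 1 in RM0/M0 (Psmc6, -0.33; 9.48% of all genes), 15 in RM1/M1 (21.3%) and 1 in RM2/M2 (Psmb5, -0.44; 11%). With library totals these were 3, 7 and 4, where 1376 of 11688, 1418 of 11443 and 1691 of 11801 genes were lower. With the GC and length trend removed there were 0 in RM0/M0, 10 in RM1/M1 and 0 in RM2/M2. Over all genes 1020 of 11688, 1958 of 11443 and 1180 of 11801 were then lower. The 3 pairs share no library, and 22 of 38 genes were below 0 in all 3 (23 with library totals) against 19.6% of all genes, while 0 were above 0 in all 3 against 19.5%.

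In the additive edgeR fit over the 3 states, 0 of 38 genes passed in either direction for irradiation, where 0.346% of all genes rose and 0.13% fell. The fit assumes the same irradiation effect in each state, while Psme1 was at 0.024 in RM0/M0, -1.0 in RM1/M1 and -0.13 in RM2/M2. At an unadjusted p under 0.05 there were 7 (18.4%, beside 14.7% of all genes), all lower, and DESeq2 called 0. Psmb5 had the lowest adjusted p (-0.33, SE 0.103, edgeR adjusted p = 0.192), followed by Psmd9 (-0.37, adjusted p = 0.197) and Psme2 (-0.44, adjusted p = 0.248). The fitted effect was below 0 for 36 of 38 genes, with a median of -0.17 against -0.014 for all genes. The median irradiation effect was -0.18 against -0.012 for all genes without M0, and -0.18 against -0.011 without RM0. Some of the 38 genes passed as lower in both of these fits, which leave 1 library in the M0 state.

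After removing the trend of fold change with GC content and transcript length over all genes, the distance from the median of all genes was -0.053 in RM0/M0, -0.15 in RM1/M1 and -0.052 in RM2/M2.

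In RM1/M1 the activators Psme1 and Psme2 were lowest, at -1.0 (interval -1.07 to -0.93) and -1.01 (-1.07 to -0.96), while Psme3 was at -0.037 (-0.14 to 0.064). The beta ring came next with a median of -0.43, and 6 of its 7 measured genes were called lower, led by Psmb7 (-0.50), Psmb6 (-0.49) and Psmb4 (-0.45). The alpha ring had a median of -0.33 with 4 of 8 lower, from Psma5 at -0.60 to Psma6 at 0.14. The lid had a median of -0.14 with 2 of 8 lower, of which Psmd8 was at -0.58. The base had a median of -0.16 with 0 of 8 lower, from Psmc5 at -0.30 to Psmc6 at 0.089. Psmc5, an ATPase of the base, had 1812 (M0), 1617 (M1) and 1803 (M2) counts without irradiation and 1643 (RM0), 1486 (RM1) and 1536 (RM2) after it. Psmd9 was lowest of the base chaperones at -0.63. Psma5, Psmd8, Psme1 and Psme2, which rose with M1 polarization, were at -0.58 or below in RM1/M1; RM1/M1 and M1/M0 share the M1 library.

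**Figure D4:**
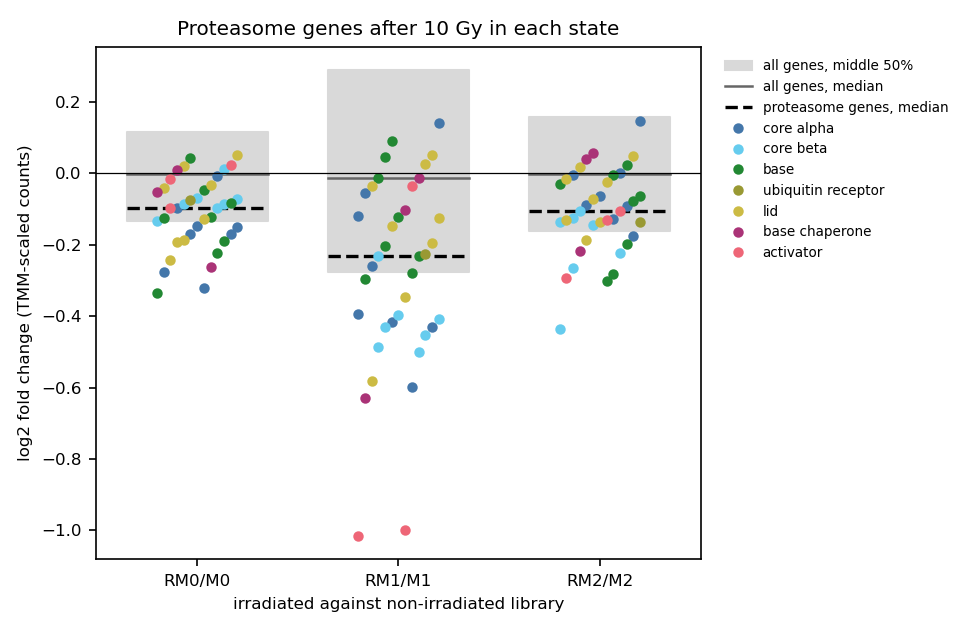
Log2 fold change of each measured gene (points, coloured by role) in RM0/M0, RM1/M1 and RM2/M2, with the middle 50% (grey) and median (solid line) of all genes and the median of the proteasome genes (dashed). The dashed line lies at -0.096, -0.23 and -0.10, below the solid line in each state, and Psme1 and Psme2 are the lowest points in RM1/M1.

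Psmb5 was lower in all 3 states (-0.13 in RM0/M0, -0.43 in RM1/M1 and -0.44 in RM2/M2), and each counting interval lay below 0. All 7 measured beta ring genes were below 0 in RM1/M1 and RM2/M2, and 6 of 7 in RM0/M0, where Psmb6 was at 0.012 (interval -0.045 to 0.069). Psmd11 was at 0.020 in RM0/M0, -0.19 in RM1/M1 and -0.025 in RM2/M2.

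**Figure D5:**
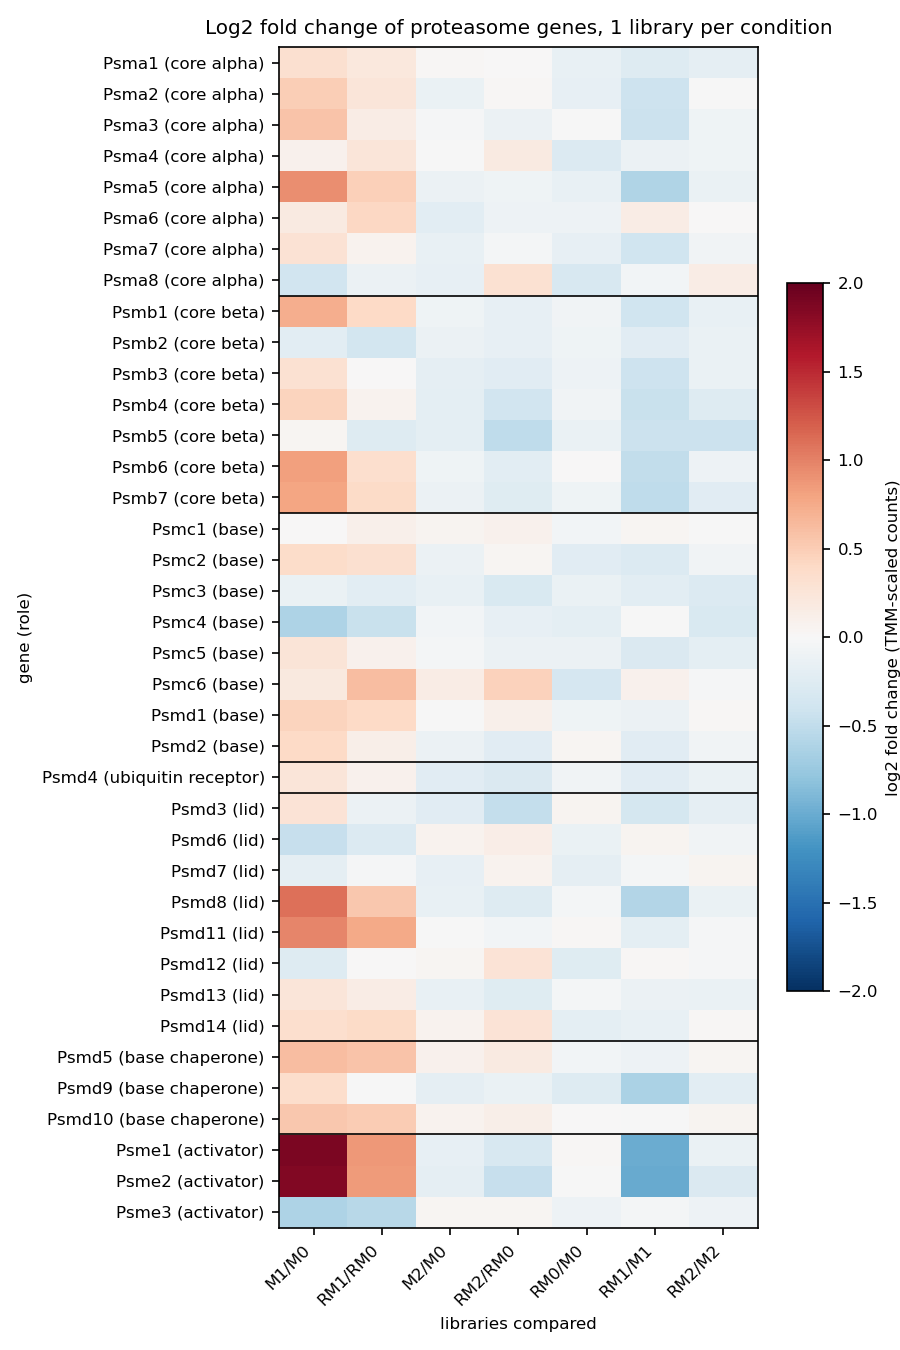
Log2 fold change of TMM-scaled counts (colour, from -2 to 2) of the 38 measured genes in the 7 library comparisons, with genes grouped by role. With TMM scaling 30 of 38 genes are red in M1/M0 and 33 are blue in RM1/M1 (13 and 24 with library totals).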

How the data were processed

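RNA-seq was available for 6 conditions of RAW264.7 macrophages with 1 library each. The deposited values are raw read counts for each gene, made by the authors with HTSeq, and these were used here. The submitters' processing notes name Trimmomatic (0.36), HISAT2 (2.2.1), HTSeq (0.11.3) and the build mm10. Whether counting used strand is not given in the sources used here. The files held 0 columns outside the 6 libraries.

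Counts were scaled with TMM factors from genes reaching 10 counts in 3 libraries or more (edgeR 4.0.16, R 4.3.3). For a pair of libraries, a prior count of 2 was added to form log2 fold changes, and genes had to reach 10 counts in either library. A difference was called at 1.25-fold, a log2 size of 0.3219. These calls set 1 library against another and carry no p-value. Exact Clopper-Pearson intervals at 95% and the floor of 3 counts cover counting error only. Effects shared across libraries were fitted in an additive model of state and irradiation and tested by the quasi-likelihood method of edgeR, with Benjamini-Hochberg adjustment at 0.05. The test was checked on simulated data with effects of at least 2-fold that were equal in each arm. That check does not cover smaller effects or effects that differ between arms. Levels per kilobase used the longest GENCODE transcript matched to the RefSeq identifier or symbol. Ratios and figures were made with Python 3.11.15.

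Every member may be named, and counts in all 6 libraries were given for the highest and lowest gene of each role in M1/M0 and RM1/M1, the catalytic core genes, Psmd14, Psmd4 and the activators. Members and lists were chosen with earlier results of these data known. Alternatives were library totals, DESeq2 (1.42.0) and its size factors, other count filters, prior counts and folds, leaving out libraries, and, added after the data were seen, removal of the trend with GC content and length. Some genes of the ubiquitin and delivery list are not reported here.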

Additional observations from a re-analysis of the deposited data

Results flagged for a closer look

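Psma6, an alpha ring gene, differed in direction after irradiation between states. Its log2 fold change was -0.096 in RM0/M0 and 0.14 in RM1/M1, a difference of 0.238, and both counting intervals excluded 0 on opposite sides. Each state has 1 pair of libraries, so the difference was not tested.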

How the results depend on the processing

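With 1 library per condition, fold changes have no replicate error, and the counting intervals understate it. With library totals, the genes called between single libraries were 7 higher and 11 lower in M1/M0 (18 and 4 with TMM), 5 and 8 in RM1/RM0 (14 and 3), 4 higher in RM2/RM0 (1), and 3, 7 and 4 lower in RM0/M0, RM1/M1 and RM2/M2 (1, 15 and 1), and the M1 effect had 5 that rose and 9 that fell (16 and 3). Directions turned in M1/M0 for Psmc2 (-0.071), Psmd1 (-0.0031), Psmd14 (-0.11), Psmd2 (-0.049) and Psmd9 (-0.084), and for the M1 effect of Psmc2 (-0.0026). At 1.5-fold the genes called were 9 higher and 2 lower in M1/M0, 4 and 0 in RM1/RM0, 0 and 0 in RM2/RM0, and 0, 4 and 0 lower in RM0/M0, RM1/M1 and RM2/M2, since the threshold is stricter. Over all genes, 1.5-fold gave 2364 higher and 2904 lower of 11778 in M1/M0, and 1721 and 2095 of 11713 in RM1/RM0. In RM2/RM0 it gave 755 and 456 of 11748. Lower were 405 of 11688 in RM0/M0, 857 of 11443 in RM1/M1 and 454 of 11801 in RM2/M2. A prior count of 0.25 gave 2 lower in RM0/M0, where 1139 of 11688 genes were. Removing the trend with GC content and length gave 0, 10 and 0 lower in RM0/M0, RM1/M1 and RM2/M2. Over all genes it gave 1020 of 11688, 1958 of 11443 and 1180 of 11801. In RM1/RM0 it gave 8 higher, where 3003 of 11713 genes were. In RM2/RM0 it gave 0 higher, where 1212 of 11748 genes were, and Psmc6 turned to -0.059. The cause of these differences was not tested. Leaving out libraries, 8 to 21 genes rose and 2 to 3 fell for M1, 0 to 1 rose and 0 to 5 fell for M2, and 0 rose and 0 to 3 fell for irradiation. The numbers of all genes that passed also varied between these fits, so these ranges are not read as a property of the 38 genes. A fit without 1 library leaves 1 library in that state. In such fits the median M1 effect of the 38 genes ran from 0.17 (without M1) to 0.31 (without RM1). It was -0.014 and -0.031 for all genes. Their median M2 effect ran from -0.15 (without RM2) to -0.016 (without RM0), where all genes were at -0.0053 and 0.0074. The additive model already sets the irradiated and non-irradiated library of each state against each other, and the labels give no replicate numbers for another pairing.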
